A study of Homo sapiens with 12 samples.

Results

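Aminoacyl-tRNA synthetases are the enzymes that load each tRNA with its amino acid before the ribosome reads the codon. The 35 genes described here are the synthetases with a row in both deposited tables, found by gene symbol, with the row of highest mean used for each symbol. They are 35 of 23617 symbols in the Granta-519 table and 35 of 23615 in the JeKo-1 table. Of the 35, 20 encode cytoplasmic enzymes and 15 encode mitochondrial enzymes. Both lines come from mantle cell lymphoma, a cancer of B cells whose hallmark is a translocation that drives CCND1, the gene of cyclin D1. Lentivirus brought either the silencing shRNA (shCycD1) or its control (shCtrl) into the cells, and all 4 groups were selected with puromycin. Each group had 3 libraries, called biological replicates in the series design. Per the labels' protocols, Granta-519 was grown in RPMI and JeKo-1 in DMEM, so that line and medium cannot be told apart, and no shRNA sequence is given in the sources used here. The comparison asks how the synthetase genes stood after cyclin D1 was silenced, in each line and between the enzymes of both compartments.

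Every synthetase joins an amino acid to the matching tRNA at the cost of ATP, and the charged tRNA is carried to the ribosome by an elongation factor. Cytoplasmic and mitochondrial protein synthesis use separate enzymes for most amino acids, all of them encoded in the nucleus, while GARS (glycine) and KARS (lysine) each make both forms from 1 gene. Part of the cytoplasmic set is held in the multisynthetase complex on the scaffold proteins AIMP1, AIMP2 and EEF1E1, and phenylalanine is loaded by an enzyme built of FARSA and FARSB subunits. Many cytoplasmic synthetase genes are known targets of ATF4, the transcription factor that is made when amino acids run short or the endoplasmic reticulum is stressed. Tryptophan's enzyme, WARS, is also a known interferon-induced gene.

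CCND1 itself was lower in every silenced library. In Granta-519 it stood at 924, 1043 and 874 RPKM in the shCtrl libraries and 213, 298 and 292 in the shCycD1 libraries (log2 change -1.83 ± 0.14 SE, limma adjusted p = 0.000257). In JeKo-1 the values were 395, 330.1 and 315 RPKM in the shCtrl libraries and 65.4, 64.8 and 67.4 in the shCycD1 libraries (log2 change -2.38 ± 0.093, adjusted p = 1.96e-06). RPKM is reads per kilobase of gene, scaled to the size of the library. The length behind it includes introns in the Granta-519 table and is compatible with exons alone in the JeKo-1 table, so no level is compared between the tables, and levels of different genes are compared in JeKo-1 only. Pearson's r across genes for libraries of the same group was 0.981 to 0.988 (Granta-519) and 0.968 to 0.974 (JeKo-1). For libraries of different groups it was 0.954 to 0.962 and 0.881 to 0.898. All 8 B-cell markers examined were at a mean RPKM of 1 or more in every group. Their summed RPKM was 2534 to 2651 (shCtrl) and 2318 to 2412 (shCycD1) in Granta-519; it was 1106 to 1249 and 1586 to 1774 in JeKo-1. They thus moved with the groups, with 4 of 8 lower in Granta-519 (18.2% of all genes were) and 5 of 8 higher in JeKo-1 (36.7% of all genes were). With values scaled to the spike-in RNAs, 3 were higher and 0 lower in Granta-519, beside 7362 and 161 of all 12668 genes. In JeKo-1 2 were higher and 0 lower on that scale, beside 1688 and 1734 of 11866. The part of these markers in the results below was not tested. Of 8 T and NK cell markers, 0 reached that level in Granta-519 and 1 (CD3G) in JeKo-1. Of 8 myeloid markers 2 and 1 did, and of 9 epithelial, fibroblast or kidney markers 2 and 1 in each group. In bulk RNA such as this, fewer cells of a kind and less RNA per cell cannot be told apart.

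In Granta-519, of 34 synthetase genes tested (FARS2 was too low), 5 rose after cyclin D1 silencing (NARS, RARS, SARS, WARS and HARS2), or 14.7%, and 3 fell (FARSB, IARS and EARS2), or 8.82%. Over all 12668 genes tested in that line 22.4% were called higher and 18.2% lower, at a Benjamini-Hochberg adjusted p under 0.05, so the members' shares were below the background in both directions. In JeKo-1 7 of the 35 rose (20%) and 14 fell (40%), where 36.7% of the 11866 genes tested were higher and 27.8% lower. There the share that rose was below the background and the share that fell above it. Of the 20 cytoplasmic enzymes in JeKo-1, 2 rose, 9 fell and 9 did not pass the test. Of the 15 mitochondrial enzymes in JeKo-1, 5 rose, 5 fell and 5 did not pass. In Granta-519 the cytoplasmic enzymes gave 4 higher and 2 lower of 20, and the mitochondrial ones 1 higher and 1 lower of 14. The median log2 change in JeKo-1 was -0.10 for the cytoplasmic and 0.076 for the mitochondrial enzymes, against 0.085 for all genes. In Granta-519 these medians were 0.12, 0.019 and 0.032.

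Directions depend on the scale. With values scaled to the spike-in RNAs in place of the authors' scaling, the median change of all genes became 0.72 in Granta-519 and -0.029 in JeKo-1. On that scale 23 members were higher and 0 lower in Granta-519, where 7362 genes in all were called higher and 161 lower, and FARSB, IARS and EARS2 turned to positive values of 0.28, 0.35 and 0.36, all below that line's median. In JeKo-1, 0 members were higher and 3 lower on that scale (DARS, FARSB and RARS2), where 1688 of 11866 genes in all were called higher and 1734 lower. No JeKo-1 member called on the deposited scale changed sign there. KARS, for example, was at -0.47 (limma adjusted p = 0.33) and LARS at 0.18 (adjusted p = 0.726). How spike-in was dosed, per cell or per amount of RNA, is not given in the sources used here. All changes below are on the deposited scale, that is, relative to the other genes of the same library. The 4 cytoplasmic genes called higher became 2 without shCtrl library 1, 1 without shCycD1 library 1 and 2 without shCycD1 library 3, while WARS, the largest rise, passed in each case.

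**Figure D1:**
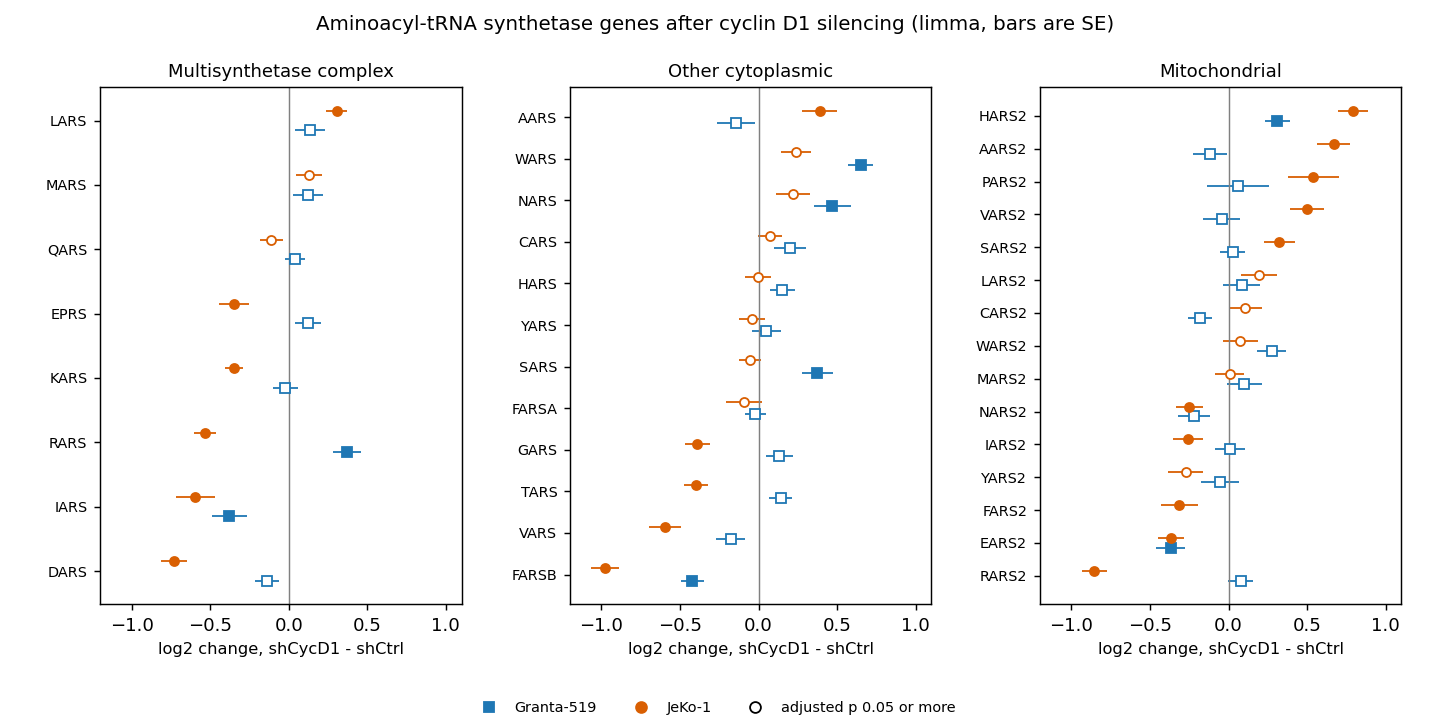
Log2 change (shCycD1 minus shCtrl, log2(RPKM + 0.5) scale) of each synthetase gene with its standard error, for both lines, with cytoplasmic and mitochondrial enzymes apart; filled symbols passed the test at an adjusted p under 0.05. WARS is the highest point of Granta-519 at 0.65, FARSB and RARS2 are the lowest of JeKo-1 at -0.98 and -0.85, and on the spike-in scale the Granta-519 falls of FARSB, IARS and EARS2 turn positive.

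**Figure D2:**
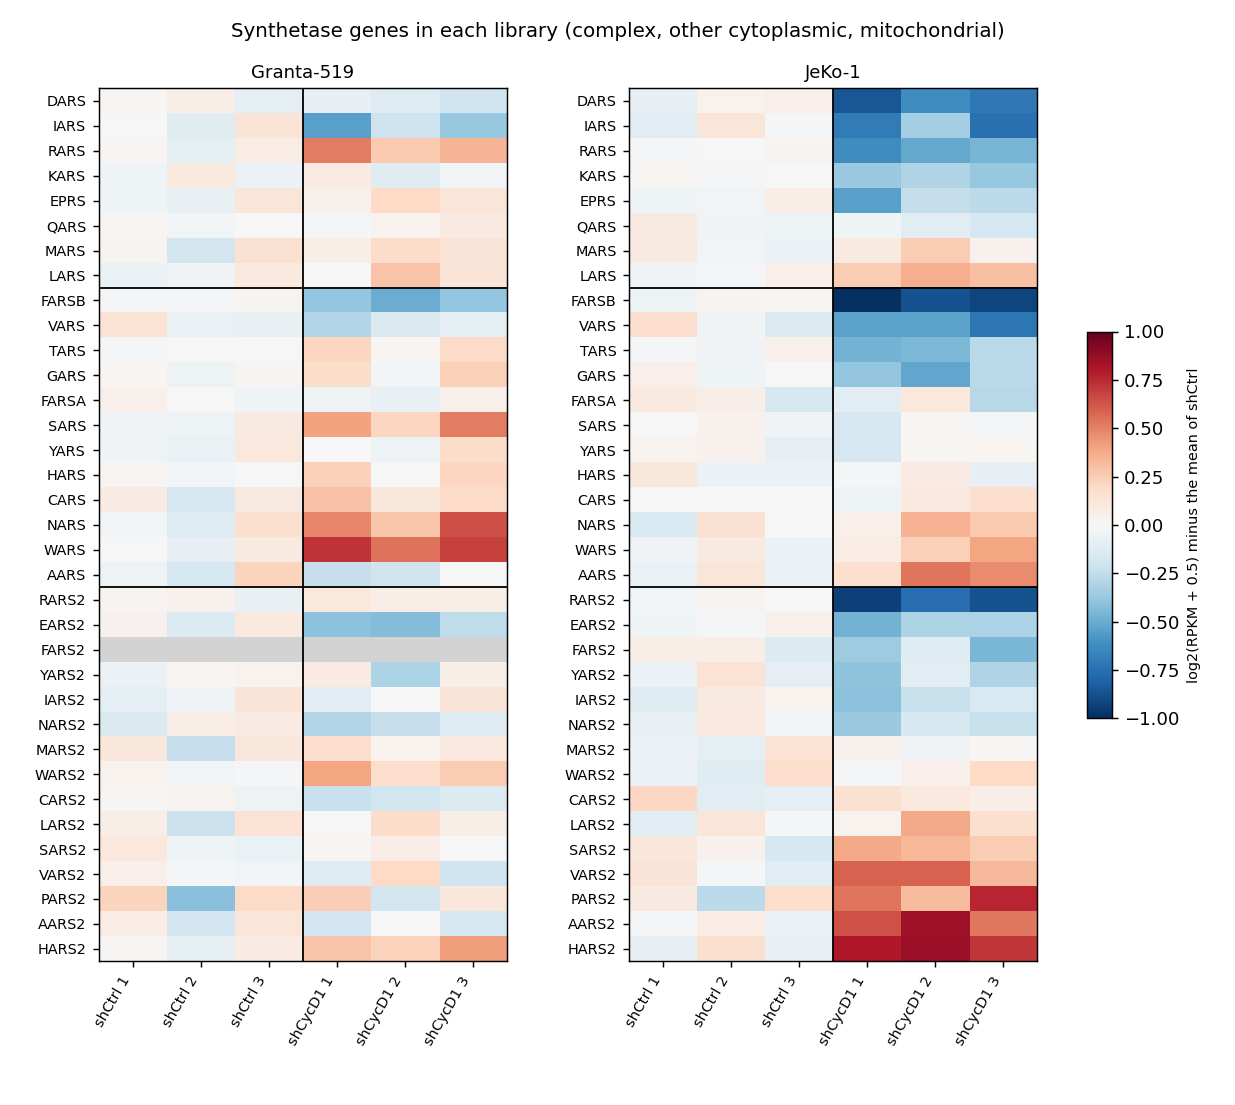
Heat map of each gene's level in each of the 12 libraries, as log2(RPKM + 0.5) minus the mean of that gene's shCtrl libraries in the same line (colours stop at 1 and -1; grey, not tested). On this deposited scale FARSB is low in all 6 silenced libraries, HARS2 is high in all 6, and RARS is high in those of Granta-519 and low in those of JeKo-1.

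In JeKo-1, where 27.8% of all genes fell and 36.7% rose, 5 of the 8 enzymes of the multisynthetase complex fell (DARS, EPRS, IARS, KARS and RARS). Of the complex, LARS rose, and MARS and QARS did not pass the test. With the GC correction 1 rose and 6 fell there, and on the spike-in scale 0 and 1. Of all JeKo-1 genes, 3532 rose and 3233 fell of 10887 with the GC correction, and 1688 and 1734 of 11866 on the spike-in scale. On the deposited values the median log2 change of the 8 enzymes in JeKo-1 was -0.35, against -0.047 for the 12 cytoplasmic enzymes outside the complex. With the GC correction these medians were closer, at -0.32 and -0.24. Of the 12 outside, 4 fell on the deposited values and 7 with that correction. In Granta-519 RARS rose, IARS fell and 6 did not pass. DARS, the aspartate enzyme, showed the largest fall of the complex in JeKo-1, from 89.4, 97.1 and 97.97 RPKM to 52.1, 61.3 and 57.5 (log2 change -0.73 ± 0.083, adjusted p = 0.00023), with no overlap between the groups. In Granta-519 its groups overlapped, at 11.6, 11.97 and 10.7 RPKM in the shCtrl libraries and 10.7, 10.4 and 9.85 in the shCycD1 libraries (log2 change -0.14 ± 0.079, adjusted p = 0.207). IARS, which loads isoleucine, was lower in both lines. It stood at 112, 132 and 120.2 RPKM in the shCtrl libraries and 74.5, 95.6 and 72.0 in the shCycD1 libraries of JeKo-1 (log2 change -0.59 ± 0.12, adjusted p = 0.004). In Granta-519 IARS was at 22.7, 20.9 and 24.9 RPKM in the shCtrl libraries and 15.4, 19.7 and 17.4 in the shCycD1 libraries (log2 change -0.38 ± 0.11, adjusted p = 0.0342). The groups did not overlap in either line, but the Granta-519 call was lost without shCtrl library 1 or 3 or shCycD1 library 1 or 3, with a log2 change of -0.46 to -0.29 over the 6 ways of leaving out 1 library.

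RARS, the arginine enzyme, moved in opposite directions. Its Granta-519 values were 36.7, 33.8 and 37.9 RPKM in the shCtrl libraries and 51.8, 43.4 and 45.8 in the shCycD1 libraries (log2 change 0.37 ± 0.09, adjusted p = 0.016). JeKo-1 had 71.7, 72.5 and 74.2 RPKM in the shCtrl libraries and 47.3, 50.8 and 52.8 in the shCycD1 libraries (log2 change -0.53 ± 0.069, adjusted p = 0.000441). Every silenced library lay above every control library in the first line and below every one in the second, although the Granta-519 rise did not pass without shCycD1 library 1 (log2 change 0.30). KARS, which loads lysine in both compartments and was the most abundant synthetase of JeKo-1, went there from 243, 237 and 239 RPKM to 186, 194 and 184 (log2 change -0.35 ± 0.058, adjusted p = 0.0014), a small fall with no overlap that did not pass after quantile normalization (-0.11, adjusted p = 0.118). Its Granta-519 values overlapped, at 137, 151 and 136 RPKM in the shCtrl libraries and 149, 129.7 and 138 in the shCycD1 libraries (log2 change -0.021 ± 0.081, adjusted p = 0.859). EPRS carries the glutamate and the proline enzyme in 1 chain. In JeKo-1 it was at 64.8, 65.4 and 69.8 RPKM in the shCtrl libraries and 45.5, 56.4 and 55.4 in the shCycD1 libraries (log2 change -0.35 ± 0.10, adjusted p = 0.0151). Granta-519 gave 22.6, 22.2 and 25.3 RPKM in the shCtrl libraries and 24.1, 26.9 and 25.4 in the shCycD1 libraries for EPRS, with overlap (log2 change 0.12 ± 0.083, adjusted p = 0.278). LARS, the leucine enzyme, also described as a leucine sensor for mTORC1, was the only member of the complex to rise in JeKo-1, from 59.9, 60.8 and 63.5 to 73.2, 79.0 and 75.8 RPKM (log2 change 0.30 ± 0.066, adjusted p = 0.00495). MARS (methionine) and QARS (glutamine) had log2 changes of 0.13 and -0.11 in JeKo-1 and of 0.12 and 0.04 in Granta-519, none called.

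Among the scaffold genes of the complex, EEF1E1, a scaffold protein that also has a role in the DNA damage response, fell in both lines, by 0.56 on the log2 scale in Granta-519 (adjusted p = 0.00304) and by 1.03 in JeKo-1 (adjusted p = 4.37e-05), though on the spike-in scale its Granta-519 value was 0.16. AIMP2, which links the enzymes to each other, fell by 0.48 in JeKo-1 (adjusted p = 0.00138). AIMP1, the third, was not called (log2 change 0.077 in Granta-519, -0.13 in JeKo-1), but with the GC correction it was higher in JeKo-1 (0.24, adjusted p = 0.0207). Of the 3 scaffold genes, 0 rose and 1 fell in Granta-519, where 22.4% of all genes rose and 18.2% fell. In JeKo-1 0 rose and 2 fell, beside 36.7% and 27.8% of all genes. With the GC correction the counts were 0 and 2 in Granta-519 and 1 and 2 in JeKo-1, and on the spike-in scale 1 and 0, and 0 and 1. All genes gave 2458 and 2441 of 11544, and 3532 and 3233 of 10887, with the GC correction. They gave 7362 and 161 of 12668, and 1688 and 1734 of 11866, on the spike-in scale.

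FARSB, the beta subunit of the phenylalanine enzyme, fell in both lines and by more than any other member in JeKo-1. The JeKo-1 libraries held 69.6, 73.7 and 73.0 RPKM in the shCtrl libraries and 32.3, 39.1 and 37.8 in the shCycD1 libraries (log2 change -0.98 ± 0.088, adjusted p = 8.27e-05). Those of Granta-519 held 8.604, 8.57 and 8.85 RPKM in the shCtrl libraries and 6.52, 6.02 and 6.53 in the shCycD1 libraries (log2 change -0.42 ± 0.075, adjusted p = 0.00493). The groups were apart in both lines. Its partner FARSA, the alpha subunit, was not called in either line (-0.022 and -0.093, adjusted p = 0.82 and 0.504), although with a correction for GC content it was called lower in JeKo-1, at -0.49 (adjusted p = 0.00604) beside -0.77 for FARSB. On the deposited values the log2 ratio of FARSB to FARSA went from -0.77 ± 0.17 (SD, n = 3) to -1.66 ± 0.21 in JeKo-1 and from -3.80 ± 0.064 to -4.20 ± 0.051 in Granta-519. In each line the silenced libraries all lay below the controls (two-sided exact permutation p = 0.1, the smallest that 3 against 3 libraries allow).

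VARS, TARS and GARS also fell in JeKo-1 and were not called in Granta-519. VARS, the valine enzyme, was at 68.5, 59.5 and 55.5 RPKM in the shCtrl libraries and 41.9, 41.9 and 36.8 in the shCycD1 libraries (log2 change -0.60 ± 0.10, adjusted p = 0.00151). In Granta-519 it was at 92.8, 80.3 and 79.8 RPKM in the shCtrl libraries and 68.4, 76.2 and 78.7 in the shCycD1 libraries (log2 change -0.18 ± 0.091, adjusted p = 0.164), again without overlap. VARS stands on 7 rows of each table, and all rows but the 1 used are at 0. TARS, the threonine enzyme, went from 83.03, 82.3 and 87.3 to 60.5, 61.4 and 69.7 RPKM in JeKo-1 (log2 change -0.40 ± 0.078, adjusted p = 0.00309). For Granta-519 TARS read 57.0, 57.6 and 57.7 RPKM in the shCtrl libraries and 66.7, 58.2 and 65.7 in the shCycD1 libraries (log2 change 0.14 ± 0.074, adjusted p = 0.174), a difference in the other direction that missed the threshold although the groups did not overlap. GARS supplies glycyl-tRNA to both compartments. JeKo-1 held 139, 131 and 134 RPKM in the shCtrl libraries and 103, 93.9 and 112 in the shCycD1 libraries (log2 change -0.39 ± 0.08, adjusted p = 0.00394), and Granta-519 43.5, 41.4 and 43.6 RPKM in the shCtrl libraries and 48.8, 42.1 and 50.5 in the shCycD1 libraries (log2 change 0.13 ± 0.086, adjusted p = 0.262).

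WARS, the tryptophan enzyme, showed the largest rise of all members in Granta-519. Its control libraries stood at 56.8, 54.0 and 60.6 RPKM and its silenced libraries at 94.7, 83.2 and 91.8 (log2 change 0.65 ± 0.08, adjusted p = 0.00116). In JeKo-1 WARS was at 53.4, 58.4 and 52.4 RPKM in the shCtrl libraries and 57.6, 64.8 and 72.0 in the shCycD1 libraries, with overlapping groups (log2 change 0.24 ± 0.10, adjusted p = 0.0653). RefSeq (GRCh38.p14) gives 2 start sites for WARS in the table used. The 250 bases before 1 of them, chr14:100375348-100375597 on the minus strand, are shown because they hold an interferon-type motif (GAAA, any pair of bases, GAAA, here in capitals), 55 bases before the start.
WARS upstream: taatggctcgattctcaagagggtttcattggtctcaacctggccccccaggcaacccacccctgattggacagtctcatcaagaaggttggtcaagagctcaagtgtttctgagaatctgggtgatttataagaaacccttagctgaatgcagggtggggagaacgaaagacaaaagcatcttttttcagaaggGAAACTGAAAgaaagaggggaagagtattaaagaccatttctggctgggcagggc
Those letters, searched on both strands after the values had been seen, occur in 2 of 25 members with a window in the table (the other is EARS2), a share of 8.0%, and in 3.71% of all genes. A match of letters is no evidence of binding.

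NARS and SARS, which load asparagine and serine, rose in Granta-519 and were not called in JeKo-1. NARS was at 105, 97.8 and 119.5 RPKM in the shCtrl libraries and 150.2, 129.5 and 168 in the shCycD1 libraries of Granta-519 (log2 change 0.47 ± 0.12, adjusted p = 0.0191), without overlap. Its JeKo-1 groups overlapped (log2 change 0.22, adjusted p = 0.113). SARS was at 17.4, 17.2 and 19.1 RPKM in the shCtrl libraries and 23.8, 20.8 and 25.7 in the shCycD1 libraries in Granta-519 (log2 change 0.37 ± 0.10, adjusted p = 0.0211) and at 112, 116 and 110.0 RPKM in the shCtrl libraries and 100.4, 114 and 112 in the shCycD1 libraries in JeKo-1 (log2 change -0.054 ± 0.072, adjusted p = 0.535). Both Granta-519 calls were lost without shCtrl library 1, shCycD1 library 1 or shCycD1 library 3, at log2 changes of 0.38 to 0.57 for NARS and 0.31 to 0.45 for SARS over the 6 ways of leaving out 1 library. AARS, the alanine enzyme, rose in JeKo-1 from 71.7, 81.7 and 71.7 to 84.1, 109 and 104 RPKM (log2 change 0.39 ± 0.11, adjusted p = 0.0173). The AARS call was lost without shCtrl library 3, shCycD1 library 2 or shCycD1 library 3, at log2 changes of 0.36, 0.32 and 0.35. In Granta-519 AARS had 44.0, 40.3 and 53.2 RPKM in the shCtrl libraries and 38.8, 39.5 and 45.4 in the shCycD1 libraries, with overlap (log2 change -0.14 ± 0.12, adjusted p = 0.37). The other cytoplasmic genes, CARS (cysteine), HARS (histidine) and YARS (tyrosine), were called in neither line, with log2 changes of 0.20, 0.15 and 0.048 in Granta-519 and 0.073, -0.0053 and -0.041 in JeKo-1.

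HARS2, the mitochondrial histidine enzyme, was the only member that rose in both lines. JeKo-1 went from 12.4, 14.7 and 12.4 to 23.2, 24.1 and 21.8 RPKM (log2 change 0.79 ± 0.095, adjusted p = 0.000308), and Granta-519 from 62.1, 57.7 and 65.1 to 75.2, 72.3 and 82.5 (log2 change 0.31 ± 0.081, adjusted p = 0.0213), with the groups apart in both. The Granta-519 call was lost without shCtrl library 1, shCycD1 library 1 or shCycD1 library 3 (log2 change 0.26 to 0.35 over the 6 ways of leaving out 1 library). HARS2 lies head to head with HARS, its cytoplasmic counterpart, and the start sites in RefSeq are 84 bases apart on chr5:140691371-140691454 (GRCh38.p14, plus strand, the direction of HARS2). The stretch between them is shown because the pair shares it while only 1 of the pair was called.
HARS to HARS2: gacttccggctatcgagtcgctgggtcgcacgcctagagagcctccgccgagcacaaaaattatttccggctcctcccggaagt
HARS had 44.6, 39.6 and 39.5 RPKM in the shCtrl libraries and 40.7, 43.7 and 38.9 in the shCycD1 libraries of JeKo-1 (log2 change -0.0053 ± 0.082, adjusted p = 0.959), so the log2 ratio of HARS to HARS2 fell there by 0.79, from 1.62 ± 0.20 (SD, n = 3) to 0.82 ± 0.022. In Granta-519 HARS was at 67.5, 65.53 and 66.8 RPKM in the shCtrl libraries and 78.6, 66.8 and 77.4 in the shCycD1 libraries, with overlap (log2 change 0.15 ± 0.081, adjusted p = 0.179).

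RARS2, the mitochondrial arginine enzyme, had the largest fall of its class, in JeKo-1, from 17.1, 17.8 and 17.5 to 8.91, 10.1 and 9.34 RPKM (log2 change -0.85 ± 0.081, adjusted p = 0.000105). In Granta-519 it was at 4.06, 4.11 and 3.74 RPKM in the shCtrl libraries and 4.32, 4.18 and 4.15 in the shCycD1 libraries (log2 change 0.078 ± 0.08, adjusted p = 0.471), slightly higher in every silenced library but not called. EARS2, which loads glutamate in mitochondria, fell in both lines. JeKo-1 held 17.7, 18.1 and 19.0 RPKM in the shCtrl libraries and 12.99, 14.6 and 14.6 in the shCycD1 libraries (log2 change -0.37 ± 0.082, adjusted p = 0.0057), and Granta-519 20.3, 17.9 and 21.1 RPKM in the shCtrl libraries and 14.7, 14.4 and 16.4 in the shCycD1 libraries (log2 change -0.37 ± 0.093, adjusted p = 0.0192), with no overlap in either. The Granta-519 call of EARS2 was lost without shCtrl library 1 or 3 or shCycD1 library 1 or 2, at a log2 change of -0.44 to -0.32 over the 6 ways of leaving out 1 library, and EARS2 overlaps GGA2 in the annotation, so that reads may be shared. FARS2 (phenylalanine) stood in Granta-519 at 0.204, 0.235 and 0.232 RPKM in the shCtrl libraries and 0.160, 0.175 and 0.230 in the shCycD1 libraries, below the level that was tested. These values are per length with introns, and FARS2 spans 521650 bases, 134 times its longest transcript. In JeKo-1 it was at 8.21, 8.19 and 7.05 RPKM in the shCtrl libraries and 5.98, 7.11 and 5.54 in the shCycD1 libraries (log2 change -0.31 ± 0.12, adjusted p = 0.0486), with overlapping groups.

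AARS2 and VARS2, the mitochondrial alanine and valine enzymes, rose in JeKo-1. AARS2 went from 8.88, 9.49 and 8.598 to 14.2, 16.6 and 13.2 RPKM (log2 change 0.67 ± 0.10, adjusted p = 0.00108). VARS2 went from 15.01, 13.6 and 12.6 to 20.9, 20.8 and 17.3 (log2 change 0.50 ± 0.11, adjusted p = 0.00484). Neither group pair overlapped, and neither gene was called in Granta-519, where AARS2 was at 19.6, 16.2 and 20.3 RPKM in the shCtrl libraries and 16.2, 18.6 and 16.6 in the shCycD1 libraries (log2 change -0.12 ± 0.11, adjusted p = 0.415) and VARS2 at 12.5, 11.8 and 11.8 RPKM in the shCtrl libraries and 10.9, 13.9 and 10.4 in the shCycD1 libraries (log2 change -0.044 ± 0.12, adjusted p = 0.79). VARS2 stands on 6 rows, the others all at 0. PARS2 (proline) was the lowest synthetase of JeKo-1 and was at 2.41, 1.78 and 2.60 RPKM in the shCtrl libraries and 3.47, 2.92 and 4.15 in the shCycD1 libraries (log2 change 0.54 ± 0.16, adjusted p = 0.0209). The smaller JeKo-1 calls, IARS2 (-0.26) and NARS2 (-0.25) lower and SARS2 (0.32) higher, each failed without at least 1 library, as did those of FARS2 and PARS2. Without 1 library the 5 mitochondrial genes called lower became 2 (without shCtrl library 2, or shCycD1 library 1) or 3 (without shCtrl library 3, or shCycD1 library 3), and the 5 called higher became 3 without shCycD1 library 1. CARS2, LARS2, MARS2, WARS2 and YARS2 were called in neither line, with log2 changes between -0.18 and 0.27 in Granta-519 and between -0.27 and 0.19 in JeKo-1.

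Levels per length can be ordered in JeKo-1. In the shCtrl libraries the cytoplasmic genes ran from 30.2 to 239.8 RPKM and the mitochondrial genes from 2.26 to 50.8. KARS led at 239.8 ± 2.75 (SD, n = 3), apart from MARS at 147 ± 7.90. FARSA and IARS, next in order after GARS at 135 ± 4.25, did not differ beyond their spread, at 124 ± 11.7 and 121 ± 10.2. IARS2 was the highest mitochondrial gene and lay above the cytoplasmic HARS and CARS, at 50.8 ± 3.82 against 41.3 ± 2.91 and 30.2 ± 0.0227. After silencing, FARSB went from rank 13 of 35 at 72.1 RPKM to 36.4 RPKM, below the HARS mean of 41.1.

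For 12 amino acids the cytoplasmic and the mitochondrial enzyme come from a gene pair, and their log2 ratio in each library does not depend on how libraries were scaled, apart from the pseudocount. The ratio rose in 8 pairs and fell in 4 in Granta-519, and rose in 6 and fell in 6 in JeKo-1, with median changes of 0.079 and 0.038. Valine moved most in JeKo-1. VARS to VARS2 went from 2.11 ± 0.036 (SD, n = 3) to 1.02 ± 0.044 there, and from 2.75 ± 0.08 to 2.62 ± 0.22 in Granta-519, where the groups overlapped. Asparagine moved the other way in both lines. The change in NARS to NARS2 was 0.69 (Granta-519) and 0.47 (JeKo-1), without overlap in either. Isoleucine (IARS to IARS2) changed by -0.39 in Granta-519 and -0.33 in JeKo-1, again without overlap, and arginine (RARS to RARS2) by 0.29 and 0.32. The arginine ratio was thus higher in both lines, although RARS itself rose in 1 and fell in the other.

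**Figure D3:**
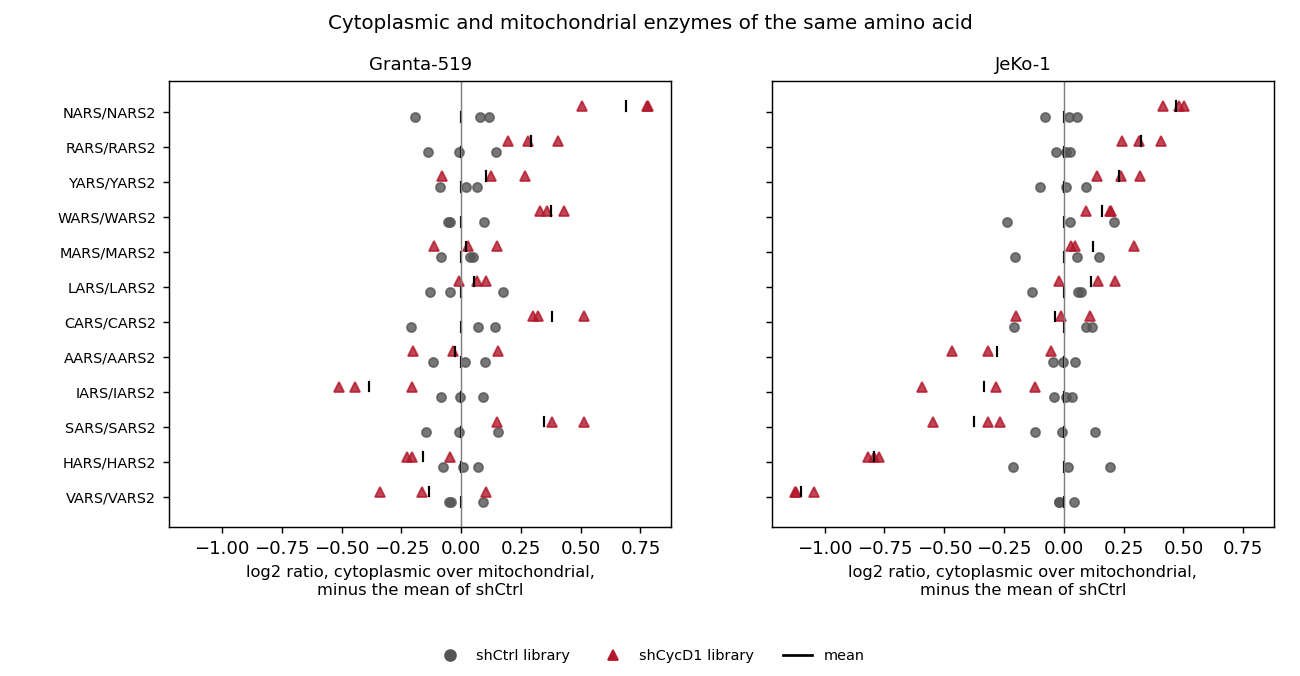
Log2 ratio of the cytoplasmic to the mitochondrial gene of the same amino acid in each library, relative to the mean of the shCtrl libraries of the line, for 12 amino acids; points are libraries. The valine ratio of JeKo-1 lies furthest below 0, with a change of -1.10, and the asparagine ratio lies above 0 in the silenced libraries of both lines.

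Changes that differed between the lines were tested in a joint fit. Of 34 members tested, 11 had a higher change in Granta-519 than in JeKo-1 and 4 a lower one, where over all 10653 genes 19.3% and 22.6% did. Of the 11, 10 were cytoplasmic: DARS, EPRS, FARSB, GARS, KARS, RARS, SARS, TARS, VARS and WARS. RARS differed most of these, by 0.90 ± 0.11, adjusted p = 8.75e-05, and its mitochondrial counterpart RARS2 by 0.93 ± 0.10, adjusted p = 4.23e-05. DARS differed by 0.59 ± 0.11, adjusted p = 0.0014, FARSB by 0.56 ± 0.11, adjusted p = 0.00205 and TARS by 0.54 ± 0.11, adjusted p = 0.00188. FARSB fell in both lines, so its difference is one of size. The 4 lower differences were those of AARS, AARS2, HARS2 and VARS2, with AARS2 the furthest at -0.79 ± 0.15, adjusted p = 0.00163. HARS2, higher in both lines, differed by -0.48 ± 0.12, adjusted p = 0.00849. On the spike-in scale these 4 turned positive (AARS 0.33, AARS2 0.059, HARS2 0.39 and VARS2 0.29). The differences of AARS (-0.54), HARS2, KARS (0.33), SARS (0.43), VARS (0.42), VARS2 and WARS (0.41) each missed the threshold under at least 1 alternative on the deposited scale, AARS, VARS and WARS among them when single libraries of either line were left out. With the GC correction VARS2 was at -0.23 (adjusted p = 0.209), and with JeKo-1 read as log2 HARS2 was at -0.26 (adjusted p = 0.0747). Among others that shrank by more than 1.5 times were KARS (0.064) and SARS (0.27) with quantile normalization, FARSB (0.27) and VARS (0.25) with JeKo-1 read as log2, and DARS (0.37) with the GC correction. The EARS2 changes of both lines differed by 0.00084 ± 0.12, adjusted p = 0.996.

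Base composition moved with the JeKo-1 changes. The transcripts of the 7 genes that rose there had a median GC content of 54.0%, those of the 14 that fell 43.7% and those of the 14 not called 51.6%. Across the 35 members GC content and log2 change had a Spearman rho of 0.47 in JeKo-1, against 0.40 across all genes with a value, which share the same 6 libraries. In Granta-519 it was -0.20 and 0.033. After a correction for GC content, JeKo-1 had 5 members higher and 17 lower, where 3532 of the 10887 genes with a GC value were called higher and 3233 lower. The cytoplasmic genes then gave 2 higher and 13 lower, and the mitochondrial ones 3 higher and 4 lower. Calls were lost for AARS (0.18, adjusted p = 0.208), PARS2, VARS2 (0.14, adjusted p = 0.194), IARS2, NARS2 and SARS2, which turned to -0.10. Calls were gained for FARSA (-0.49), QARS (-0.37), YARS (-0.31), SARS (-0.19) and YARS2 (-0.36), all lower, and for NARS (0.32) and WARS2 (0.25), both higher. VARS moved from -0.60 to -1.08, RARS from -0.53 to -0.31 and AARS2 from 0.67 to 0.31 (adjusted p = 0.0494). The falls of FARSB (-0.77), RARS2 (-0.65) and DARS (-0.51) and the rise of HARS2 (0.70) still passed.

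**Figure D4:**
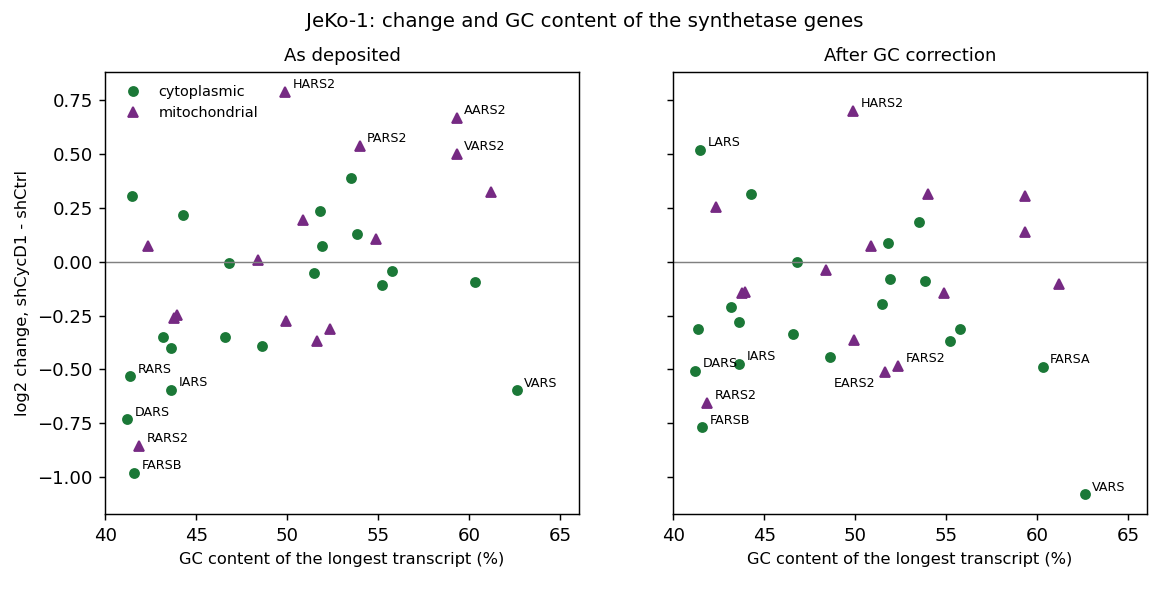
Log2 change in JeKo-1 (vertical axis) against the GC content of the transcript in percent (horizontal axis) for the synthetase genes, as deposited and after the GC correction. Genes of low GC content such as FARSB, RARS2 and DARS lie lowest as deposited, and VARS, at 62.6% GC, is the lowest after the correction at -1.08.

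The amino acid response genes, a list of known ATF4 targets and regulators, moved in both directions. Of 31 tested list genes, 11 rose and 5 fell in Granta-519 and 15 rose and 11 fell in JeKo-1, with median log2 changes of 0.07 and 0.30. As shares these were 35.5% and 16.1% in Granta-519, where 22.4% of all genes rose and 18.2% fell, and 48.4% and 35.5% in JeKo-1, where 36.7% and 27.8% did. After the GC correction JeKo-1 had 10 higher and 8 lower, beside 3532 and 3233 of 10887 over all genes. On the spike-in scale Granta-519 had 25 higher and 0 lower, beside 7362 and 161 of 12668 over all genes. JeKo-1 had 5 and 3 on that scale, beside 1688 and 1734 of 11866. Among the list genes higher in both lines on the deposited scale were CHAC1, which degrades glutathione, PPP1R15A, which helps restart translation, and DDIT3, a stress transcription factor. CHAC1 changed by 1.47 (adjusted p = 0.000148) in Granta-519 and 1.69 (adjusted p = 0.00873) in JeKo-1, PPP1R15A by 0.97 (adjusted p = 0.00293) and 1.09 (adjusted p = 0.0255, and 0.0661 with the GC correction), and DDIT3 by 0.84 (adjusted p = 0.00099) and 1.31 (adjusted p = 0.000752). SLC7A11, a cystine transporter, rose in Granta-519 by 0.78 (adjusted p = 0.0312), and SESN2, a restraint on mTORC1, in JeKo-1 by 1.48 (adjusted p = 0.000183). Chosen after their values were seen, ATF4 itself rose in both lines, by 0.53 (adjusted p = 0.0135) and 0.91 (adjusted p = 0.000308), while PHGDH and PSAT1, of serine synthesis, fell in both, PHGDH by 0.64 and 0.83 and PSAT1 by 0.53 and 0.96 (on the spike-in scale the Granta-519 values were -0.053 and 0.14). ASNS, the asparagine synthetase that is a standard ATF4 target, was at 0.15 (adjusted p = 0.268) and -0.24 (adjusted p = 0.0263).

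The letters TGATGNAA, the core of the C/EBP-ATF element that ATF4 binds, were searched on both strands of the 250 bases before each RefSeq start site. They occurred in 3 of 25 members with a window (AARS, IARS and YARS2), or 12%, and in 3.89% of all genes. AARS and IARS are shown because their changes had opposite signs in JeKo-1, with the match in capitals (on the strand shown it reads TTGCATCA), and in IARS also an E-box, CACGTG, the site of MYC and its relatives. The windows are chr16:70289507-70289756 and chr9:92293698-92293947, both on the minus strand of GRCh38.p14.
AARS upstream: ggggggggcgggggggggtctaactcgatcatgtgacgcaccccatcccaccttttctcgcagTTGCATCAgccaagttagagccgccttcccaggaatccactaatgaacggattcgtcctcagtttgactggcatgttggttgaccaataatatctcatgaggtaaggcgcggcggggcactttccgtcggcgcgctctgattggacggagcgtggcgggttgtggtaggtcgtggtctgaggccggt
IARS upstream: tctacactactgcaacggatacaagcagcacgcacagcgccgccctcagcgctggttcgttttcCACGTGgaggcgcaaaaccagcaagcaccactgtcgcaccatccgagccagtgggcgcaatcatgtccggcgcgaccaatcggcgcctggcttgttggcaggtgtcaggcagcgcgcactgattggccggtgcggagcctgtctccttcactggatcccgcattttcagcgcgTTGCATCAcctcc
The match begins 187 bases before the start in AARS and 13 before it in IARS. CACGTG occurred in 3 of the 25 (EARS2, IARS and MARS2), or 12%, against 7.73% of all genes. Absence of a match says only that these letters are not in this window.

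The partners of the synthetases on either side gave mixed counts. On the deposited scale they are to be read against all genes called higher and lower (22.4% and 18.2% in Granta-519, 36.7% and 27.8% in JeKo-1). With the GC correction all genes gave 2458 and 2441 of 11544 in Granta-519, and 3532 and 3233 of 10887 in JeKo-1. On the spike-in scale they gave 7362 and 161 of 12668 in Granta-519, and 1688 and 1734 of 11866 in JeKo-1. Elongation factors of the cytoplasm, which carry charged tRNA to the ribosome, gave 1 higher and 0 lower of 6 in Granta-519, 4 higher and 1 lower of 6 in JeKo-1. With the GC correction these counts were 0 and 0, and 3 and 2; on the spike-in scale they were 5 and 0, and 0 and 0. EEF1A1, the carrier itself, rose by 0.34 (Granta-519; 0.30 and not called with the GC correction, adjusted p = 0.0689) and 0.39 (JeKo-1). EEF1B2, its exchange factor, rose by 0.45 in JeKo-1. Mitochondrial translation factors gave 1 higher and 2 lower of 13 in Granta-519, 1 higher and 2 lower of 13 in JeKo-1. The GC correction made these 0 and 2, and 3 and 3, and spike-in scaling 7 and 0, and 0 and 1. Among them GFM1, the mitochondrial elongation factor G, fell by 1.17 in JeKo-1, and QRSL1, which makes mitochondrial glutaminyl-tRNA, fell by 0.60 in Granta-519. Genes of tRNA export and end processing gave 1 higher and 3 lower of 9 in Granta-519, 2 higher and 7 lower of 9 in JeKo-1. After GC correction there were 1 and 3, and 1 and 5, and on the spike-in scale 4 and 0, and 0 and 2. RPP30, a subunit of RNase P, fell in both lines, by 0.54 and 0.996, and XPOT, the tRNA export receptor, by 0.53 and 0.62. On the spike-in scale the Granta-519 values of QRSL1, RPP30 and XPOT turned to 0.11, 0.14 and 0.20.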

How the data were processed

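RNA of 12 libraries was sequenced from a stranded mRNA kit, per the labels' protocols. Per the submitters' processing notes, FastQC, TopHat2 2.1.1, limma 3.9 and the builds GRCh37 and hg19 were used in roles that the notes do not state. Read counting, annotation and log step: not given in the sources used here. The authors deposited 1 table per line, titled RPKM, with values read here as ln(RPKM + 1), a natural log. A test on the Granta-519 values bears on this: low values times the genomic span were whole multiples of 1 step in 82.2 to 86.0% of cases (tolerance 0.1), against at most 63.6% for other bases. Each share is the best over many steps tried, over a wider range of steps for the other bases. Chance is 20% for 1 fixed step and higher for such a best share. With the longest transcript in place of the span, the natural log gave 24.8 to 26.2%. For JeKo-1 the base is inferred and not settled, since no base passed 43.8%. There the SD of the spike-in logs, JeKo-1 over Granta-519, had a median ratio of 0.972 with the natural log and 0.703 with base 2. The files hold no counts and no depth was taken from them, so precision rests on the 3 libraries of each group.

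Each line was fitted with limma 3.58.1 (R 4.3.3; trended empirical Bayes) on log2(RPKM + 0.5), a scale that understates changes of low genes, for genes at RPKM 1 or more in at least 3 of 6 libraries, and a joint fit of 12 libraries gave the difference of the changes. Adjusted p is Benjamini-Hochberg over all genes tested. Errors beside log2 changes are standard errors (SE). P-values measure the spread between these libraries.

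The members and gene lists were chosen with earlier results of these data known, so no list was tested. Values in every library are given for members called in both lines, for the 3 largest called changes of each class and line, and for those whose change differed between lines. From each further list, up to 4 genes per line with the largest called change could be named. Alternatives were other pseudocounts, filters, scalings, library weights, a GC correction, a replicate block, other rows of a symbol, a log2 reading of JeKo-1 and each library left out. GC content is that of the longest GENCODE transcript of each symbol. Start sites and the promoter windows (32 windows for 25 members) are from RefSeq tables of the later build GRCh38.p14, and no coordinates come from the deposited files. The windows of DARS, GARS, LARS, MARS, QARS, SARS, VARS, YARS, AARS2 and VARS2 were not used here. In that annotation YARS overlaps S100PBP, CARS2 overlaps ING1, EARS2 overlaps GGA2 and FARS2 overlaps LYRM4, and whether counting used strand is not given in the sources used here. The fits were tested on simulated data.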

Additional observations from a re-analysis of the deposited data

Results flagged for a closer look

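The change after silencing differed between the lines for 15 members, by the test of the difference itself (Granta-519 minus JeKo-1, limma joint fit, adjusted p under 0.05). In the multisynthetase complex these were DARS, with a difference of 0.59 on the log2 scale, EPRS with 0.47, KARS with 0.33 and RARS with 0.90. Each fell in JeKo-1, and RARS alone of them rose in Granta-519. Among the other cytoplasmic genes the difference was 0.56 for FARSB, 0.52 for GARS, 0.54 for TARS and 0.42 for VARS, all lower in JeKo-1. It was 0.43 for SARS and 0.41 for WARS, both called higher in Granta-519 only, and -0.54 for AARS, called higher in JeKo-1 only. Of the mitochondrial genes, RARS2 differed by 0.93, AARS2 by -0.79, VARS2 by -0.54 and HARS2 by -0.48. No group has 4 or more libraries, so no single library could be tested as far from the others.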

How the results depend on the processing

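Counts below are of members called, with the reported value first. Spike-in scaling changed most. In Granta-519 it took the cytoplasmic genes called higher from 4 to 15 and lower from 2 to 0, and the mitochondrial ones from 1 to 8 and from 1 to 0. In JeKo-1 it took cytoplasmic higher from 2 to 0 and lower from 9 to 2, and mitochondrial higher from 5 to 0 and lower from 5 to 1. For the difference of the lines it took higher from 11 to 17 and lower from 4 to 0. Over all genes tested in Granta-519 it took higher from 2840 to 7362 and lower from 2303 to 161. Over all genes in JeKo-1 it took higher from 4357 to 1688 and lower from 3303 to 1734. For the difference over all genes it took higher from 2053 to 3872 and lower from 2410 to 143. Among changes called on either scale, it turned those in Granta-519 of FARSB to 0.28, IARS to 0.35, EARS2 to 0.36, FARSA to 0.73 and KARS to 0.73, and the differences of AARS to 0.33, AARS2 to 0.059, HARS2 to 0.39 and VARS2 to 0.29. Other small changes that were called on neither scale also turned, such as AARS in Granta-519 to 0.60. GC correction turned SARS2 in JeKo-1 to -0.10, left 3 mitochondrial genes higher there, and made 2 lower in Granta-519. With JeKo-1 read as log2, the CCND1 difference turned to -0.16. Library weights gave 4 cytoplasmic lower, 2 mitochondrial higher and 3 lower in Granta-519, and 7 lower differences. Quantile normalization gave 5 cytoplasmic and 3 mitochondrial genes higher in JeKo-1. No low-value filter gave 1 cytoplasmic lower in Granta-519 and 3 mitochondrial lower in JeKo-1, and a pseudocount of 1 gave 2 mitochondrial higher in Granta-519. The cause was not tested. Leaving out 1 library gave, in Granta-519, 1 to 4 cytoplasmic higher, 1 to 2 lower, 0 to 1 mitochondrial higher and 0 to 1 lower. In JeKo-1 it gave 1 to 4 cytoplasmic higher, 9 lower in each case, 3 to 5 mitochondrial higher and 2 to 5 lower. Differences were 9 to 11 higher and 3 to 5 lower.

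The sources used here do not say whether the replicate numbers pair the libraries, and the fits reported above did not use the numbers. Deviations of same-numbered libraries from their group means correlated at 0.0055, -0.12 and 0.033 in Granta-519 and at 0.19, 0.095 and 0.10 in JeKo-1. For differently numbered libraries the range was -0.12 to 0.11 in Granta-519 and -0.10 to 0.00053 in JeKo-1. Every same-numbered pair thus lay above every other pair in JeKo-1, though all were weak, and not in Granta-519. With the replicate block, 1 cytoplasmic gene was lower in Granta-519 in place of 2, JeKo-1 had 3 cytoplasmic and 6 mitochondrial genes higher and 9 and 6 lower, and the differences were 13 higher and 6 lower.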
